A study of Bos taurus with 6 samples.

Results

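The coat protein complex II (COPII) genes SAR1A, SAR1B, SEC23A, SEC23B, SEC24A, SEC24B, SEC24C, SEC24D, SEC13 and SEC31A were examined in bovine blastocysts whose oocytes had been matured with or without melatonin (MT). The 10 genes were taken by their symbols from the 36075 genes of the expression table, and each symbol matched 1 row. They were chosen by name with the expression values of both groups already known, so the difference between the groups is described for them and not tested. The 3 MT-treated libraries came from blastocysts grown from slaughterhouse oocytes that had been cultured for 22 h in maturation medium with 1e-07 mol/L MT, and the 3 control libraries from blastocysts of oocytes matured in the same way without MT. All oocytes were then fertilized and cultured in vitro without a further difference between the groups being described. Each library held a pool of 3 blastocysts, and the methods give 3 production runs per group, with the treatments of a run made side by side. Control and MT-treated libraries may therefore share runs, and the labels do not say which. Concentration, time and pool size were taken from the methods of the study, because the labels give none of them. A pool mixes trophectoderm, inner cell mass and hypoblast, and in such bulk RNA fewer cells of a type and less RNA per cell cannot be told apart.

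COPII is the coat that forms vesicles on the endoplasmic reticulum (ER) and carries newly made secretory and membrane proteins towards the Golgi. The small GTPase SAR1 starts the process when it binds GTP and inserts into the ER membrane, where it recruits the inner coat, a SEC23 and SEC24 heterodimer. SEC23 is the GTPase-activating protein of SAR1, and SEC24 binds the sorting signals of the cargo. SEC13 and SEC31 then assemble as the outer cage. Mammals carry paralogs of SAR1, SEC23 and SEC24, and the SEC24 proteins fall into an A and B class and a C and D class that prefer different cargo signals. In the blastocyst this route serves a trophectoderm that secretes interferon tau and builds a polarised epithelium.

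Values are TPM, which by definition scale transcript abundance for length and to a common library total. Levels of different genes can thus be set side by side. The listed values summed to 936783 to 937698 TPM in control and to 912686 to 913707 TPM in MT-treated libraries. The listed totals therefore differed between the groups. TPM keeps no read counts, and sequencing depth per library, which the study tabulates, was not used here, so no interval for counting error is given. The libraries differed in more than the members. Between 8854 and 8953 genes were above 0 TPM in a control library and between 14372 and 14408 in an MT-treated library, and 4037 of the 11953 genes tested were listed at 0 in every control library. Whether such a transcript was absent or went undetected cannot be read from TPM. The methods describe 1 procedure for the blastocysts of both groups and do not state a separate handling, and a difference in handling could not be told apart from that of the treatment in any control value of 0 or in any difference below. Trophectoderm markers were abundant in both groups, with a summed level of 12025 to 12351 TPM in control and 11218 to 11618 TPM in MT-treated libraries over 12 genes. KRT8 and KRT18 made up most of this sum, and the MT-treated values lay above control for 9 of the 12 genes, GATA2 and GATA3 among them, and below for KRT8, IFNT and IFNT3. CDX2, ELF5 and NANOG were, however, listed at 0 in every control library, and 6 of 8 hypoblast markers were listed at 0 there, including HNF4A and PDGFRA. Of these 6, GATA4 and FOXA2 were also at 0 in every MT-treated library, and SOX17 had 0.14 to 0.20 TPM there. Inner cell mass markers summed to 338 to 341 TPM in control and 385 to 394 TPM in MT-treated libraries over 8 genes, of which 3, such as KLF4, lay above control, SALL4 and LIN28B lay below and 3, POU5F1 included, overlapped. Hypoblast markers summed to 18.3 to 18.9 TPM in control and 93.3 to 102 TPM in MT-treated libraries. Of 9 cumulus and granulosa cell markers 1, FSHR, reached 1 TPM in every library, and the list summed to 17.2 to 19.2 TPM in control and 15.1 to 17.1 TPM in MT-treated libraries. Blood and immune cell markers summed to 32.8 to 35.03 TPM in control and 150 to 171 TPM in MT-treated libraries, mainly from the globin genes HBA and HBB, with PTPRC, CD68 and CD79A listed at 0 in all libraries. Sperm cell markers summed to 90.6 to 97.5 TPM in control and 8.04 to 9.29 TPM in MT-treated libraries, from TNP1 and TNP2. These levels moved together with the values below, and their part in them was not tested.

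All 10 genes reached the level required of tested genes, which was at least 1 TPM in at least 3 libraries. Only 5 of them, SAR1A, SAR1B, SEC23B, SEC13 and SEC31A, were at 1 TPM or more in all 6 libraries. The other 5 reached that level through a single group. In 7 genes every MT-treated value lay above every control value, and in 3 genes every MT-treated value lay below. Among all 11953 genes tested, 61.9% lay above and 34.2% below in this sense, so that separation of the groups was the rule in this table and says nothing particular about the coat. The plot of levels by library shows the 10 genes in the order of their roles.

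**Figure D1:**
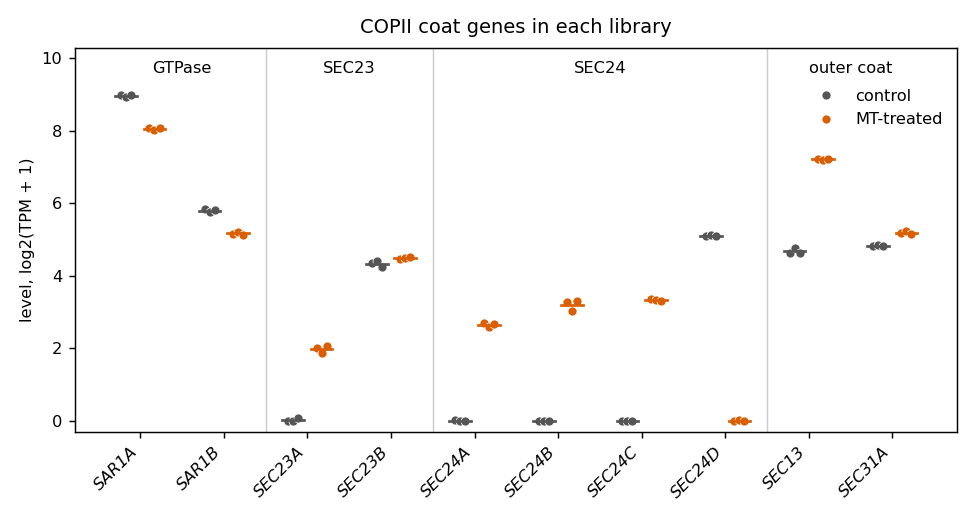
Levels of the 10 COPII coat genes as log2(TPM + 1) in 3 control and 3 MT-treated libraries, with 1 point per library and a bar at the mean of each group. SAR1A was the most abundant member in both groups, SEC24A, SEC24B and SEC24C were at or near 0 in control, and SEC24D was at or near 0 after MT.

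SAR1A (ENSBTAG00000016858), the more abundant SAR1 paralog, stood at 508, 489.8 and 505 TPM in controls and at 268, 258 and 269 TPM after MT. The groups lay far apart, with a mean of 501 ± 9.94 TPM in control and 265 ± 6.30 TPM after MT (SD, n = 3 each), which is 1.89-fold lower. SAR1B (ENSBTAG00000021226), whose loss in humans blocks the export of chylomicrons, stood at 56.3, 53.0 and 55.0 TPM in controls and at 34.8, 36.2 and 34.1 TPM after MT. Its mean was 1.56-fold lower after MT, at 35.03 ± 1.09 TPM (SD, n = 3) against 54.8 ± 1.65 TPM (SD, n = 3). Both GTPases were thus lower in each MT-treated library than in any control library, and SAR1A stayed the major form. It made up 90.0 to 90.2% of the summed SAR1 TPM in control and 87.7 to 88.8% in MT-treated libraries. The ratio of SAR1A to SAR1B TPM was 9.15 ± 0.112 in control and 7.58 ± 0.408 after MT (SD, n = 3 each). Multiplying a library by a single factor leaves such a ratio as it is, and these ranges did not overlap either.

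SEC23B (ENSBTAG00000018295), the SEC23 paralog mutated in congenital dyserythropoietic anaemia type II, stood at 19.6, 20.1 and 18.1 TPM in controls and at 21.3, 21.7 and 21.8 TPM after MT. This was the smallest difference among the 10 genes, 1.12-fold, and the gap between the highest control and the lowest MT-treated library was close to the spread within control (SD 1.04 TPM, n = 3). SEC23A (ENSBTAG00000003708), the paralog mutated in cranio-lenticulo-sutural dysplasia, was listed at 0 in control libraries 1 and 2 and at 0.06 TPM in control library 3. In the MT-treated libraries it had 3.01, 2.64 and 3.16 TPM. SEC23A was therefore listed far below SEC23B in both groups and above 1 TPM after MT only. Of the summed SEC23 TPM, SEC23A made up 0 to 0.330% in control and 10.8 to 12.6% in MT-treated libraries. Summed over both paralogs, SEC23 had 19.3 ± 1.01 TPM in control and 24.6 ± 0.376 TPM after MT (SD, n = 3 each).

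The SEC24 family, which reads the cargo, held 4 genes of which each was at or near 0 in 1 group. SEC24D (ENSBTAG00000003619) stood at 33.5, 33.7 and 33.4 TPM in controls and at 0, 0.01 and 0 TPM after MT. SEC24C (ENSBTAG00000002791), of the same class, was listed at 0 throughout control and stood at 9.34, 9.19 and 9.0 TPM after MT. SEC24B (ENSBTAG00000010945) was listed at 0 throughout control and stood at 8.66, 7.25 and 8.84 TPM after MT. The SEC24 family was thus listed almost wholly as SEC24D in control and as the other 3 paralogs after MT. SEC24A (ENSBTAG00000018322), which shares the A and B class with SEC24B, stood at 0.01, 0 and 0 TPM in controls and at 5.48, 5.01 and 5.34 TPM after MT. Because 1 group is at or next to 0 for each of these 4 genes, no fold is given.

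As shares of the summed SEC24 TPM, SEC24D made up 99.97 to 100% in control libraries and 0 to 0.0466% in MT-treated libraries. After MT, SEC24C held 40.5 ± 2.09%, SEC24B 36.3 ± 2.24% and SEC24A 23.2 ± 0.176% (SD, n = 3 each). The A and B class together made up 0 to 0.0298% of the family in control libraries and 57.1 to 61.2% in MT-treated libraries. The summed level of the 4 genes was 33.5 ± 0.145 TPM in control and 22.7 ± 1.09 TPM after MT (SD, n = 3 each). The difference was -0.56 on the log2 scale. It shrank to -0.08 after median centring, in which each library is set to the same median over genes present in all libraries. After centring on the median of the differences gene by gene, the SEC24 sum still differed by -0.29. Set against the SEC23 sum, its partner in the heterodimer, the ratio of SEC23 to SEC24 TPM was 0.575 ± 0.0277 in control and 1.08 ± 0.0503 after MT (SD, n = 3 each). The plot of paralog shares shows these patterns library by library.

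**Figure D2:**
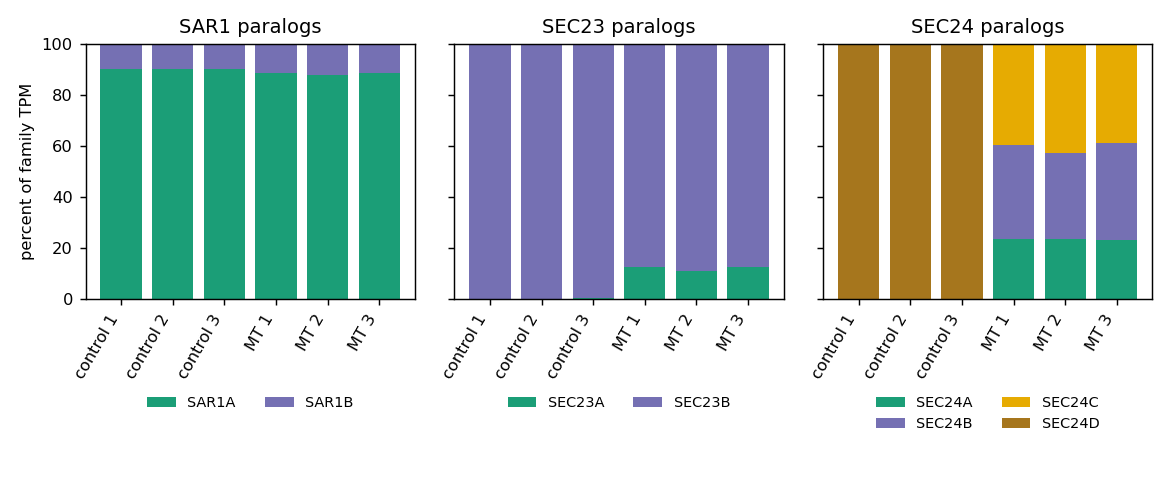
Stacked bars of each paralog's share of the summed TPM of its family, in percent, for SAR1, SEC23 and SEC24 in each of the 6 libraries. SAR1A stays near 90% in control and 88% after MT, SEC23A appears at 10.8 to 12.6% after MT, and SEC24 changes from SEC24D alone to SEC24A, SEC24B and SEC24C.

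Values near 0 in a group were common in this table and not particular to the coat. Of the 10 genes, 4 (SEC23A, SEC24A, SEC24B and SEC24C) were under 0.1 TPM in every control library and at 1 TPM or more in every MT-treated library, as were 38.0% of the genes tested. The opposite held for 1 of the 10 genes, SEC24D, and for 3.70% of the genes tested. The share depends on the level: of 3199 tested genes averaging 2 to 10 TPM after MT, the range that holds these 4 genes, 57.8% were under 0.1 TPM in every control library. Of 1737 tested genes averaging 20 to 50 TPM in control, the range of SEC24D, 7.48% were under 0.1 TPM in every MT-treated library. Among 266 groups of symbols that differ in a final letter and had at least 2 tested genes, 10 (3.76%) held a gene of each kind, and SEC24 was 1 of 4 such groups among the 24 with at least 4 tested genes. SEC24 was picked from its values, and this count is a description of the table. Paralogs may share reads, and how similar these sequences are was not analysed here.

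In the outer coat, SEC13 (ENSBTAG00000017825) stood at 23.8, 26.4 and 23.8 TPM in controls and at 149, 145 and 149 TPM after MT. The mean went from 24.7 ± 1.54 TPM to 148 ± 2.32 TPM (SD, n = 3 each), a 6.0-fold higher level and the largest ratio among the 5 genes present in all libraries. SEC31A (ENSBTAG00000020525), its partner in the cage, stood at 27.4, 28.0 and 27.2 TPM in controls and at 35.1, 36.7 and 34.7 TPM after MT. That is 1.29-fold higher after MT, with a gap between the groups several times the spread within them (SD 0.406 and 1.10 TPM, n = 3 each). SEC13 and SEC31A had nearly equal levels in control, with a ratio of SEC13 to SEC31A TPM of 0.895 ± 0.0428 (SD, n = 3), and unequal levels after MT, with a ratio of 4.17 ± 0.190 (SD, n = 3). SEC31A kept closer to SEC23B, with a ratio of 1.43 ± 0.0628 in control and 1.64 ± 0.0514 after MT (SD, n = 3 each).

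Within the coat, the order of levels in control was SAR1A, SAR1B, SEC24D, SEC31A, SEC13 and SEC23B, with no overlap between neighbours, followed by SEC23A, SEC24A, SEC24C and SEC24B at or near 0, which could not be ordered. SAR1A exceeded 96.3% of the genes detected in a control library and SEC23B 49.2% (medians over 3 libraries). After MT the order was SAR1A, SEC13, SEC31A, SAR1B, SEC23B, SEC24C, SEC24B, SEC24A, SEC23A and SEC24D. SEC31A and SAR1B overlapped there, and no other neighbours did. Among the genes detected after MT, SAR1A exceeded 96.3%, SEC13 93.9% and SEC24C, the highest SEC24 paralog there, 46.4%. More genes were detected after MT, so these percentiles are not compared with those of control: SAR1B, which had a lower TPM after MT, stood at 71.0% in control and at 78.1% after MT. SAR1A made up 75.8 ± 0.524% of the summed TPM of the 10 genes in control and 49.9 ± 0.469% after MT, and SEC13 3.73 ± 0.285% and 27.9 ± 0.0374% (SD, n = 3 each). The 10 genes together had 661 ± 9.08 TPM in control and 531 ± 7.72 TPM after MT (SD, n = 3 each). This difference of -0.32 on the log2 scale depends on the scaling, since it turned to 0.16 after median centring and was -0.05 after centring on the median of the differences gene by gene. The coefficient of variation lay between 0.433% and 6.26% in control and between 1.302% and 10.6% after MT for genes at 1 TPM or more in the group, where the medians of all such genes were 3.04% and 5.08%. SEC24B had the highest of these, at 10.6%.

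The size of a TPM difference, and for some genes its direction, depended on how libraries were scaled. The groups also differed in the number of genes detected, and the part of this in the scaling was not tested. Over the 5988 genes with at least 1 TPM in all libraries, the median of log2(TPM + 1) was lower by 0.48 after MT, a shift of -0.48. With each library centred on that median, the differences in log2(TPM + 1), MT-treated minus control, moved from -0.92 to -0.44 for SAR1A and from -0.63 to -0.15 for SAR1B. Centring moved the difference of SEC23B from 0.16 to 0.64 and that of SEC31A from 0.35 to 0.83, and no member changed its direction. The median of the gene-by-gene differences over the same genes was smaller, at -0.27, and centring on it gave -0.65 for SAR1A, -0.36 for SAR1B, 0.43 for SEC23B and 0.62 for SEC31A. Quantile normalization, which gives each library the same distribution, changed the sign for SEC23A, from 1.95 to -0.35, and for SEC23B, from 0.16 to -0.01. It also took SEC24A from 2.64 to 0.02, SEC24B from 3.21 to 0.49 and SEC24C from 3.35 to 0.56. By its construction it raised every tested gene listed at 0 throughout control to 1.11 on the log2 scale in the control libraries. The differences of SEC24D, -5.10 as deposited and -5.01 after quantile normalization, and of SEC13, 2.54 and 2.67, moved little. The size also depends on the constant added before the logarithm where a group is near 0. With 0.1 in place of 1 added to each TPM, the difference was 6.38 for SEC24B, 5.70 for SEC24A and -8.35 for SEC24D. The plot of differences by scaling sets the 3 versions side by side.

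**Figure D3:**
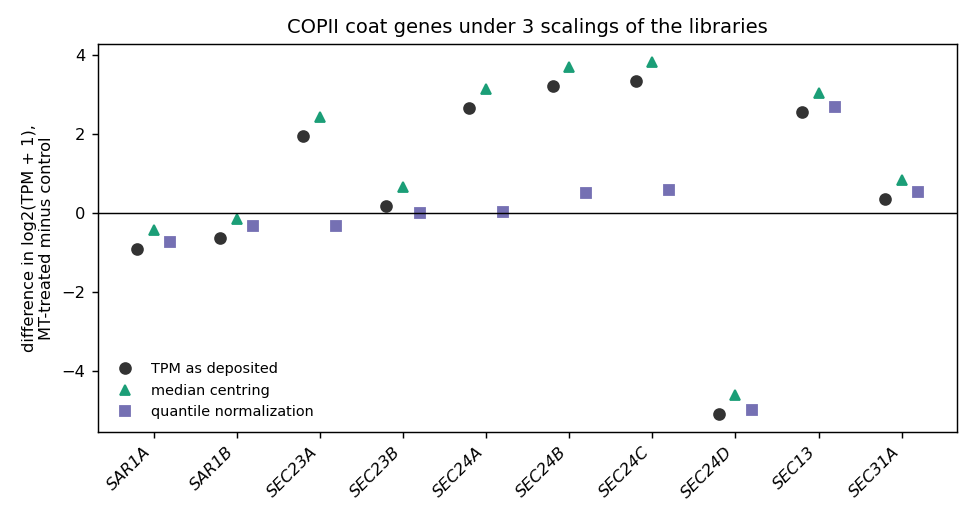
Difference in log2(TPM + 1) between MT-treated and control libraries for the 10 COPII coat genes, with TPM as deposited, after median centring and after quantile normalization (means of 3 libraries per group). SEC24D lies near -5 and SEC13 between 2.54 and 3.02 in all versions, whereas SEC23A and SEC23B fall to -0.35 and -0.01 after quantile normalization.

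SAR1B and SEC24A, which moved in opposite directions, lie next to each other in the bovine RefSeq annotation of ARS-UCD2.0, with no other named protein-coding gene between them. No other members were neighbours of this kind.

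Genes that act with the coat were then examined in 7 lists, which hold none of the 10 members, with limma on log2(TPM + 1) and Benjamini-Hochberg adjustment over all 11953 genes tested. Of those genes, 61.6% were called higher and 34.1% lower after MT at an adjusted p under 0.05, with a median difference of 1.12, and these shares are the background for each list. Of the called genes, 64.4% were higher, or 73.5% after median centring, 69.6% after centring on the median gene difference, 51.1% after quantile normalization and 43.7% with only those 6925 genes kept that no library listed at 0, of which 2814 were higher and 3626 lower. The 28 genes named by rule for these lists were taken from called genes whose groups did not overlap. Their adjusted p-values by limma, between 5.70e-10 and 2.63e-07, follow from that choice and are no further support. Genes named in addition are given as such.

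Of 16 regulators of COPII and genes of the ER exit sites, 7 were higher, 8 lower and 1, KLHL12, was not called (43.8% higher and 50% lower, median difference -0.05). After median centring 10 genes were higher and 6 lower, as against 5 and 11 with quantile normalization. PREB, the SEC12 exchange factor that loads SAR1 with GTP, fell from 39.3 ± 1.37 to 9.81 ± 0.480 TPM (SD, n = 3 each), 4.01-fold. TFG, which organises the exit sites, fell from 306 ± 1.12 to 104 ± 3.35 TPM (SD, n = 3 each). SEC16A, the scaffold of the exit sites, had 0.25, 0.19 and 0.17 TPM in control and 1.78, 1.70 and 1.85 TPM in MT-treated libraries. PREB, TFG, SEC16A and KLHL12 were named after their values were seen. Under the rule, PEF1, a partner of the ubiquitin ligase that modifies SEC31, was listed at 0 throughout control and reached 24.1, 21.5 and 23.0 TPM after MT. CSNK1D, a casein kinase that phosphorylates coat proteins, was likewise listed at 0 in control and had 28.9, 29.8 and 29.2 TPM. TMEM39A fell from 50.4 ± 1.38 to 5.06 ± 0.379 TPM and PPP6C, the catalytic subunit of protein phosphatase 6, from 74.8 ± 0.393 to 11.1 ± 0.995 TPM (SD, n = 3 each). In control, 5 of the 7 higher genes were listed at 0 throughout, as were 4037 of the 7367 higher genes of the whole table.

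Among 25 tested cargo receptors of ER exit, 14 were lower and 11 higher (56.0% and 44.0%, median difference -0.28). The split was 15 higher and 10 lower after median centring, 11 and 11 after centring on the median gene difference, and 9 higher and 14 lower after quantile normalization. TMED10, a p24 receptor, fell from 182 ± 0.869 to 55.1 ± 1.56 TPM (SD, n = 3 each), 3.31-fold. TMED1, of the same family, fell from 64.7 ± 3.07 to 0.543 ± 0.0404 TPM (SD, n = 3 each). ERGIC3 was listed at 0 throughout control and stood at 46.9, 48.1 and 47.2 TPM after MT. MPPE1, which remodels the anchor of GPI proteins before export, had 0.02, 0 and 0 TPM in control and 43.5, 43.5 and 49.5 TPM in MT-treated libraries. For 3 genes of this list, TMED6, TMED8 and LMAN1L, all values were 0.

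COPI, the coat of the return route from the Golgi, and the ARF cycle that drives it were represented by 21 tested genes, of which 12 were lower, 8 higher and 1, COPG1 (named as the exception), not called (57.1% lower, median difference -0.19). This turned to 13 higher and 7 lower after median centring and to 10 and 7 after centring on the median gene difference. GBF1, the ARF1 exchange factor of the early Golgi, fell from 18.2 ± 0.336 to 0.700 ± 0.0800 TPM and ARFGAP2, which ends the ARF1 cycle, from 38.6 ± 1.41 to 3.49 ± 0.239 TPM (SD, n = 3 each). KDELR1, a receptor that returns ER proteins, rose from 5.33 ± 0.384 to 33.9 ± 0.476 TPM (SD, n = 3 each), 6.36-fold. ARFGEF2 was listed at 0 throughout control and reached 8.37, 8.64 and 11.5 TPM after MT.

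SNAREs and tethers of ER to Golgi transport held 33 tested genes, of which 18 were higher, 12 lower and 3 not called (54.5% and 36.4%, median difference 0.87). In control, 10 of the 18 higher genes were listed at 0 throughout, as were 4037 of the 7367 higher genes of the whole table. After median centring 24 genes of the list were higher and 8 lower. Among its 20 genes above 0 in all libraries the majority was the opposite, with 5 higher and 12 lower. TRAPPC2L, a subunit of the TRAPP tether, had 86.4, 95.8 and 103 TPM and SCFD2 52.9, 57.0 and 57.5 TPM in the MT-treated libraries, both from 0 in every control library. SCFD1, the SLY1 regulator of the SNARE STX5, fell from 128 ± 1.65 to 47.7 ± 0.606 TPM and GOSR2, a Golgi SNARE, from 94.5 ± 1.45 to 36.6 ± 1.94 TPM (SD, n = 3 each). Among clathrin and adaptor genes, the coat of later routes, 13 of 26 were higher and 12 lower (50% and 46.2%, median difference 0.08), but 7 and 11 among those above 0 in all libraries. GGA1 rose from 0, 0.06 and 0 TPM to 25.3, 22.8 and 26.5 TPM and GGA2 from 0 in every control library to 17.9, 18.7 and 19.6 TPM. AP4S1 fell from 21.4, 20.6 and 18.0 TPM to 0 in every MT-treated library, and AP4M1, of the same adaptor, from 39.3 ± 0.668 to 9.66 ± 0.501 TPM (SD, n = 3 each).

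SEC13 is also a subunit of the Y complex of the nuclear pore and of GATOR2, which acts on amino acid signalling to mTORC1. Of 11 tested genes of these complexes, 6 were higher and 5 lower (54.5% and 45.5%, median difference 0.44), or 6 and 3 after median centring and 5 and 5 after quantile normalization. NUP133 rose from 9.74 ± 0.462 to 31.5 ± 0.416 TPM (SD, n = 3 each), 3.24-fold, and AHCTF1, which brings the Y complex to chromatin, from 0 in every control library to 6.44, 6.29 and 6.20 TPM. NUP43 fell from 33.8 ± 0.712 to 8.32 ± 0.229 TPM and the GATOR2 subunit WDR59 from 90.7 ± 0.935 to 25.8 ± 0.623 TPM (SD, n = 3 each). These values stand beside the 6.0-fold higher level of SEC13, and the difference between SEC13 and its partners was not tested.

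Transcription factors known to act on COPII genes and the proteases that release them from membranes gave 8 tested genes, 5 higher and 3 lower (62.5% and 37.5%, median difference 1.15), or 4 and 4 after quantile normalization and 1 and 3 among the 4 genes above 0 in all libraries. XBP1, the factor of the unfolded protein response that widens the secretory pathway, fell from 227 ± 3.00 to 60.4 ± 2.10 TPM, 3.76-fold, and ATF6 from 46.4 ± 0.307 to 8.41 ± 0.618 TPM, 5.51-fold (SD, n = 3 each). CREB3L2, which activates SEC23A in cartilage, was listed at 0 throughout control and reached 17.4, 17.6 and 17.7 TPM after MT. ATF6B had 18.5, 16.2 and 16.9 TPM after MT, also from 0 in every control library. Levels of the factors and of the coat genes are given side by side, and no relation between them was tested. The plot of all lists shows their differences beside those of the coat.

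**Figure D4:**
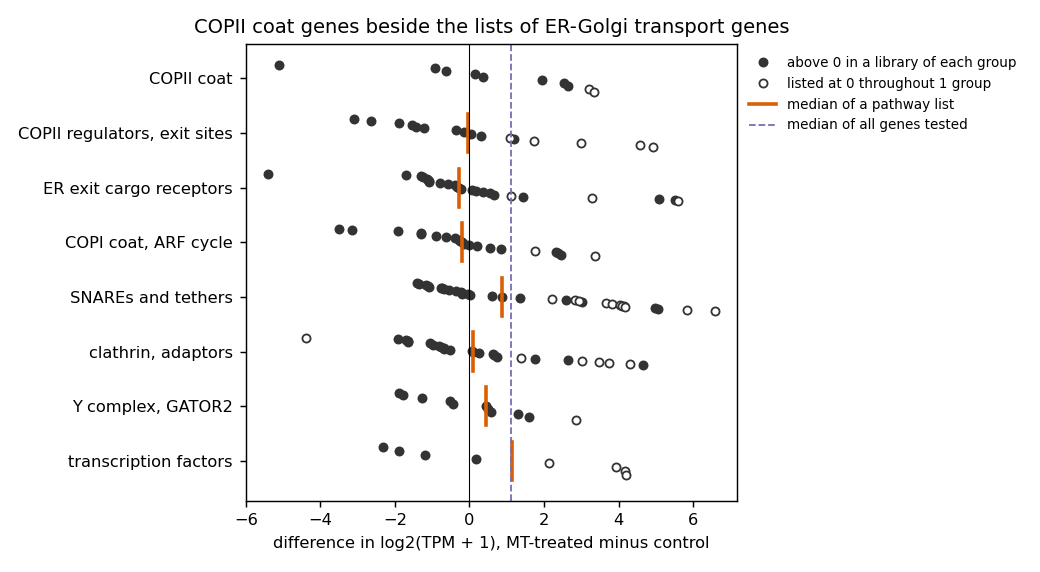
Difference in log2(TPM + 1), MT-treated minus control, for each tested gene of the COPII coat and of 7 lists of transport genes and their regulators, with open points for genes listed at 0 throughout a group. Orange bars mark list medians, which run from -0.28 for cargo receptors to 1.15 for transcription factors, and the dashed line marks the median of all genes tested at 1.12.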

How the data were processed

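RNA of 3 control and 3 MT-treated blastocyst pools was examined. According to the methods, reads passed fastp and FastQC, were aligned with STAR 2.7.9a and counted with featureCounts from Subread 1.6.3. The methods name ARS-UCD1.3 and the processing notes ARS-UCD1.2, and only the order of genes was taken from another assembly, ARS-UCD2.0 of RefSeq. The methods name Smart-seq2, whereas the labels name a TruSeq kit. For each gene the authors deposited 1 TPM value per library, and how they derived it from counts is not given in the sources used here. Because TPM replaces counts, the count test of the study was not run.

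TPM were transformed to log2(TPM + 1). Genes reaching 1 TPM in 3 or more libraries entered the fit with limma 3.58.1 in R 4.3.3 (eBayes with trend, all 6 libraries, no covariates), with Benjamini-Hochberg adjustment and a threshold of 0.05. The fit was tested on simulated data, where it called 90.5% of 200 genes changed by 1 on the log2 scale and 10 unchanged genes, with 11953 genes simulated in all. Unlike these data, the simulation changed few genes and left none without signal in a whole group. It does not show how the fit behaves in that setting. Paralog shares, ranges and figures were made with Python 3.11.15, pandas 2.3.3 and matplotlib 3.10.9. Libraries were treated as unpaired, because no label ties a replicate number to a production run.

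The members and lists were chosen with earlier results of these data known. Lists came from general knowledge, and 159 of 163 symbols matched a row. From each list up to 2 rises and 2 falls were named, those with the largest difference among called genes whose groups do not overlap, besides all members. Alternatives were median centring, quantile normalization, a replicate block, each library left out, no trend, pseudocount 0.1, and either no filter or 5 TPM in place of 1. Testing only genes that no library listed at 0, and centring on the median gene difference, were chosen later, with the data in view. Sequence comparisons were not analysed here.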

Additional observations from a re-analysis of the deposited data

How the results depend on the processing

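Each of the 28 pathway genes named kept its direction and its adjusted p under 0.05 by limma under the alternatives in which it was tested. These genes were picked for the largest differences of their lists, so this outcome was largely fixed by the choice. It says nothing about the other genes of the lists. Among the members, quantile normalization reversed SEC23A, to -0.35, and SEC23B, to -0.0092, so that 5 members were lower in place of 3. Median centring moved COPI genes to 13 higher and 7 lower, from 8 and 12, and left 3 lower genes in place of 5 in the complexes that hold SEC13. A minimum of 5 TPM left 4 higher COPII regulators in place of 7, with 13 genes tested, and 5750 higher and 3815 lower of 10005 genes in the whole table. With the restriction to genes above 0 in all libraries, chosen after seeing the data, 2814 in place of 7367 genes were higher and 3626 in place of 4071 lower in the whole table, since tested genes at 0 in any library are left out, among them 4037 higher genes at 0 throughout control and 360 lower genes at 0 throughout MT. The majority thus turned to lower. It also turned for SNAREs and tethers (5 higher and 12 lower), clathrin and adaptor genes (7 and 11) and transcription factors (1 and 3). COPII regulators had 2 higher and 8 lower genes and cargo receptors 6 and 14. Centring on the median gene difference, also chosen after seeing the data, shifted libraries by -0.27 in place of -0.48 and left 7 lower COPI genes in place of 12, with 7948 higher and 3475 lower genes in the whole table.

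Without 1 library in turn, the whole table had 7319 to 7338 higher and 4004 to 4049 lower genes, and SNAREs and tethers had 11 to 13 lower genes. The other list counts and the counts of members by direction were the same in each of these fits. The share of SEC24D in control was 99.99 to 100%, that of SEC24C after MT 39.3 to 41.3%, that of SEC23A after MT 11.6 to 12.5%, and that of SAR1A 90.1 to 90.2% in control and 88.1 to 88.6% after MT. The labels number the replicates 1 to 3 in both groups. Deviations of libraries with the same number correlated at -0.0115, -0.000679 and 0.0588 across genes, and 2 of 6 libraries correlated best with their own number, and no label ties a number to a production run, so they were not treated as paired, although runs may be shared. With the replicate block, 7379 genes were higher and 4082 lower. Depth was not used here, and values near 0 cannot be ordered.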
